A study of Homo sapiens with 16 samples.

Results

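Ribosome biogenesis and nucleolar genes were followed in 8 human lymphoid cell lines, each with and without an inhibitor of DNA methylation combined with an inhibitor of histone deacetylases. A list of 38 symbols was searched by annotated symbol on an Affymetrix GeneChip, an array that reads each transcript with a set of short probes near its 3' end. A gene with several probe sets was represented by the one that averaged highest across the 16 arrays. This left 31 genes of the list among 11963 genes in all. NOP56, DKC1, BOP1 and PPAN were dropped because their probe sets carry several gene symbols, and GNL3, EBNA1BP2 and DDX18 were not analysed here. There were 4 groups of 4 arrays. Treated anaplastic large cell lymphoma (ALCL) lines were Karpas 299, SU-DHL-1, JB6 and FE-PD. They received 1 µM 5-aza-2'-deoxycytidine for 6 days, which lowers DNA methylation, and 625 nM trichostatin A, an inhibitor of histone deacetylases, for 24 hours. Untreated ALCL lines were the same 4 lines without either agent. Treated T-cell lines were Molt-4, Molt-3, Jurkat and CCRF-CEM under the same scheme, and untreated T-cell lines were their untreated counterparts. The labels call all of them cell lines, name no vehicle, and give 1 array per line and condition. So n counts lines and not patients, and p-values measure the spread between lines. The tests treat the 8 lines as independent of each other, and whether any of them are related was not examined. Per the series title, the study asked whether such treatment gives T-cell lines an ALCL-like expression pattern.

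Ribosomes are assembled mainly in the nucleolus. RNA polymerase I transcribes the long ribosomal RNA precursor, small nucleolar ribonucleoproteins modify it (box C/D particles methylate ribose, box H/ACA particles make pseudouridine), and large assemblies of processing factors cleave and fold it into the small and large subunits. These factors are abundant in proliferating lymphoid cells, and many of their genes are known targets of the transcription factor MYC. In ALCL the 5' part of NPM1 is often fused to the kinase gene ALK. Expression in a culture is a mean over its cells, so fewer expressing cells and less RNA per cell cannot be told apart.

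Treated arrays differed from untreated ones in measures that no gene list defines. The array's control probe set for the 5' part of 28S ribosomal RNA was higher on the treated array by 5.46 to 7.40 on the log2 scale in the ALCL lines other than Karpas 299 and in Molt-3 and Molt-4, and changed by -0.81 to 0.64 in Karpas 299, CCRF-CEM and Jurkat. The SD of all values on an array was lower on the treated array in all 8 lines, by 0.024 to 0.303. Cell type labels were checked against defining markers on the untreated arrays: 7 of 9 T-cell markers were lower and 5 of 6 ALCL markers higher in ALCL lines, none of 5 B-cell markers was called, and of 5 myeloid markers CSF1R was higher. The untreated ALCL mean of ALK, the ALCL marker that was not called, was 9.54 with a range of 6.39 to 11.10, against 6.27 in untreated T-cell lines.

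Promoters were looked at because most genes of the list moved together. RefSeq promoter windows (GRCh38.p14) were matched for 26 of the 31 genes, and motifs were searched on both strands in the 250 bases before the annotated start. The E-box CACGTG, the letters that MYC and MAX bind, was in 5 of 26 windows (19.2%: DDX21, IMP4, NOL7, UTP18 and UTP20), against 10.7% of all 9563 genes with a window. CCGGAAG, the core of ETS factor sites, was in 12 of 26 (46.2%, against 15.2%), and CGCATGCG, the NRF1 core, in 3 of 26 (11.5%, against 3.36%). CCAAT was in 42.3% of the windows of the list, against 42.4% of all, and TATAAA in 7.69%, against 11%. No motif's letters hold those of another. A match is a description of letters and not a binding site. UTP18, UTP20 and NOL7 are shown as windows with an E-box, and WDR43, TSR1 and GAR1 as windows without one from genes with some of the largest changes. Capitals mark CACGTG, and CCGGAAG or its reverse complement CTTCCGG. The windows, written 5′ to 3′ on the gene's strand, are chr17:51260296-51260545 on the plus strand for UTP18, chr12:101279855-101280104 on the plus strand for UTP20, chr6:13615085-13615334 on the plus strand for NOL7, chr2:28894417-28894666 on the plus strand for WDR43, chr17:2336458-2336707 on the minus strand for TSR1 and chr4:109815260-109815509 on the plus strand for GAR1.
UTP18: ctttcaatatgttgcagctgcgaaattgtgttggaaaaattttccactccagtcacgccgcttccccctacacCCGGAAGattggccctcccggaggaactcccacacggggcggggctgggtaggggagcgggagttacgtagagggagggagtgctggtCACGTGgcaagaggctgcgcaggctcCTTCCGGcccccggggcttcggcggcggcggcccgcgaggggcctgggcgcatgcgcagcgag
UTP20: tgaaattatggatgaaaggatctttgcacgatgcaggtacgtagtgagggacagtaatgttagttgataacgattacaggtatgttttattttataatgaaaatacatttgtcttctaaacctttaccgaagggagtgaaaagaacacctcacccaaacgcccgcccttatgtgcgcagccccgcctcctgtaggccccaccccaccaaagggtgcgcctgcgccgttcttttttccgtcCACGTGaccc
NOL7: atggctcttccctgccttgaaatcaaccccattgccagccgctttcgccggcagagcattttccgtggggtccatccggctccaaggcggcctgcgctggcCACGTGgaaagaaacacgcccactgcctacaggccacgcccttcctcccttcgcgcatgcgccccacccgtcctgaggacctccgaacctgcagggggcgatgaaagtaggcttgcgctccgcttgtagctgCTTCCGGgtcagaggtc
WDR43: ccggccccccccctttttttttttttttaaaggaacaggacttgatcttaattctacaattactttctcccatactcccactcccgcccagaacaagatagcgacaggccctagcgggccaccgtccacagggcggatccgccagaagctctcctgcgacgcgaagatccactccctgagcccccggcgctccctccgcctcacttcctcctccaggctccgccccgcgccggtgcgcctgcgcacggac
TSR1: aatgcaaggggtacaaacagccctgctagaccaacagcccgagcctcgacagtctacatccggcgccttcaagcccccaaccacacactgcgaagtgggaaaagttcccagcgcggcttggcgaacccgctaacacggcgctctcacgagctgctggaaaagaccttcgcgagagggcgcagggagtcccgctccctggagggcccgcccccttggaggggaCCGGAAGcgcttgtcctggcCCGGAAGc
GAR1: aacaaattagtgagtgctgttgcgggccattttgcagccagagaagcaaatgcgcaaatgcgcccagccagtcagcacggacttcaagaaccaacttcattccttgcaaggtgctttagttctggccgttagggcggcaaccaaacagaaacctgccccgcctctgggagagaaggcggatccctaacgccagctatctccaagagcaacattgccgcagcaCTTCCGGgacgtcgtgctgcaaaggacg

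Most of the 31 genes fell under treatment in both cell types. Over all 8 lines 25 were lower and 1, POLR1B, was higher at an adjusted p under 0.05 (limma, Benjamini-Hochberg over the 11963 genes), where 23.7% of all genes were called lower and 29.9% higher. In ALCL lines 18 were lower and none higher, against a background of 13.4% lower and 8.04% higher. In T-cell lines 22 were lower and none higher, against 20.2% and 21.7%. At an unadjusted p under 0.05, 23 genes were lower and 1 higher in ALCL lines, where 36.4% of all genes differed in either direction. In T-cell lines 25 were lower and 0 higher, against 52.9%. The median log2 change of the 31 genes was -0.67 in ALCL lines, where the median of all genes was 0.09, and -0.74 in T-cell lines, where it was 0.14. Falls of at least 2-fold were called for 10 genes in ALCL lines (background 6.09%) and for 11 in T-cell lines (background 9.4%). The 4 treated values lay below the 4 untreated ones without overlap for 10 genes in ALCL lines (background 8.75%) and for 18 in T-cell lines (background 15.7%). The treated array was lower in all 8 lines for 19 genes (background 14%), and none was higher in all 8 (background 15.2%).

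Genes with high mean values made up much of the list. Of the 2991 genes with the highest means, 28.5% were lower in ALCL lines and 39.4% in T-cell lines, and of the 17 genes of the list among them 11 and 13 were lower. The counts leaned on single lines. In ALCL lines the number called lower was 7 without JB6 and 8 without SU-DHL-1, where 7.74% and 8.44% of all genes were lower. In T-cell lines it was 13 without Molt-3 and 12 without Molt-4, where 13.2% and 12.9% of all genes were lower. Over all 8 lines it stayed between 24 and 26 with any 1 line left out. Centring the arrays on their hybridisation spikes moved the median of all genes to -0.47 in ALCL and -0.53 in T-cell lines. Of all genes 16.1% were then called lower and 0.685% higher in ALCL lines, 25.8% and 0.552% in T-cell lines, and 36.2% and 1.02% over all 8 lines. Centring on each array's median gave 22.8% lower and 12.8% higher in T-cell lines, and 26.5% and 19.8% over all 8 lines. With the spike centring the median of the 31 genes was -1.23 and -1.41. Quantile normalization gave medians of -0.44 and -0.48, with 13 genes of the list lower in ALCL lines, 17 in T-cell lines and 22 over all 8 lines (background 10.9%, 15.2% and 19.3%). Relative to the median of all genes, 30 of 31 lay below it in each cell type on the deposited scale. After quantile normalization 27 did in each, and with arrays scaled to 1 SD 28 in ALCL lines and 27 in T-cell lines.

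**Figure D1:**
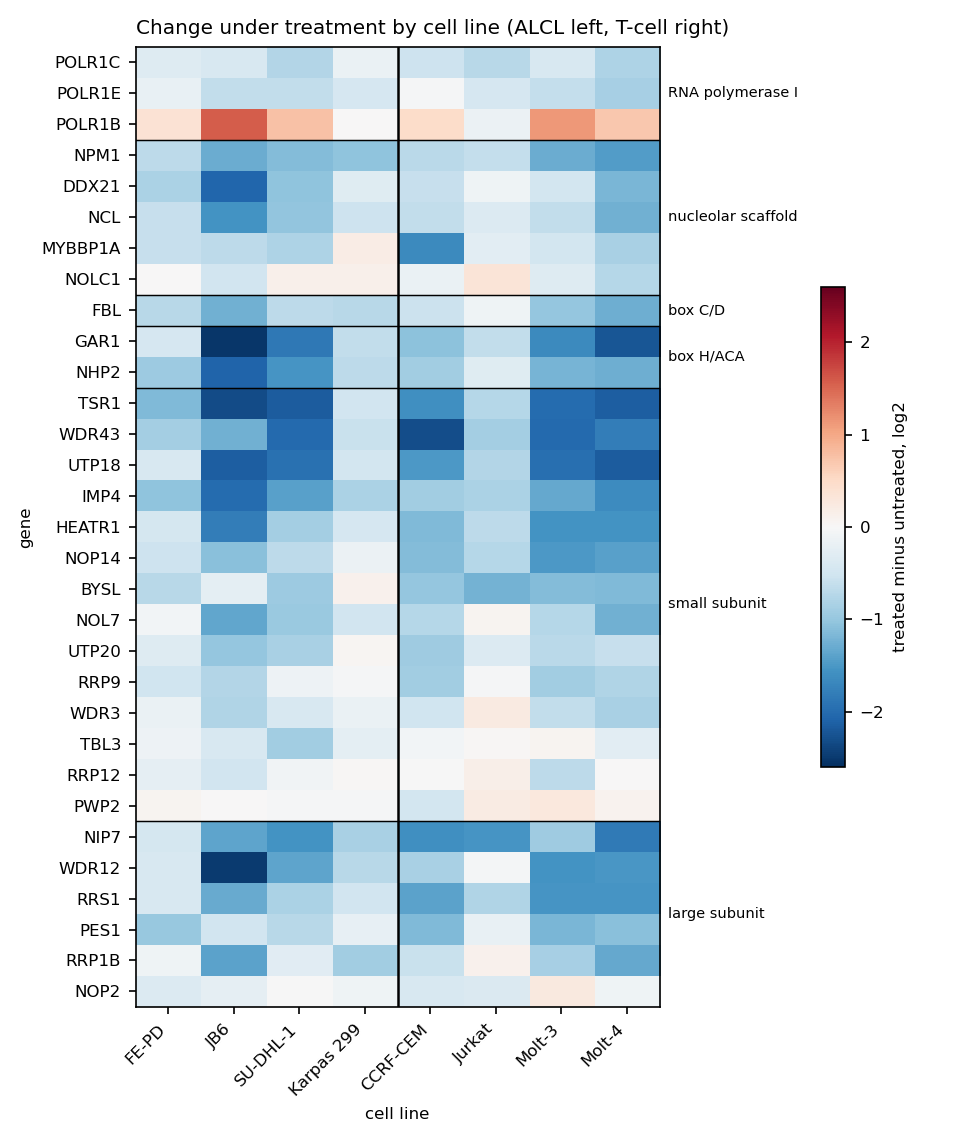
Log2 change (treated minus untreated) of each of the 31 genes (rows, by role) in each cell line (columns, 4 ALCL lines left and 4 T-cell lines right), blue for lower and red for higher on the treated array. JB6 and Molt-4 hold the darkest columns, with median changes of -1.24 and -1.25, and POLR1B stands out as a red row.

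Values are given on the log2 RMA scale, in which 1 unit is a 2-fold difference and probe sets of different genes cannot be set against each other. Values of ALCL arrays come first from FE-PD, then from JB6, then from SU-DHL-1 and last from Karpas 299. Those of T-cell arrays come first from CCRF-CEM, then from Jurkat, then from Molt-3 and last from Molt-4. A value after ± beside a log2 change is its standard error from the fit, with n = 4 lines per group, and every adjusted p of a gene is from limma.

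Factors of the small subunit made up 14 of the 31 genes. Several belong to the small-subunit processome, the assembly that cleaves the precursor around the U3 particle. Over all 8 lines 11 of the 14 genes fell. In ALCL lines 6 fell and in T-cell lines 10. TSR1, a late-acting assembly factor of the small subunit, read 7.11, 6.27, 7.21 and 6.83 on the treated ALCL arrays, against 8.26, 8.59, 9.37 and 7.32 on the untreated ALCL arrays. It read 7.29, 7.50, 6.50 and 6.59 on the treated T-cell arrays, against 8.89, 8.26, 8.50 and 8.74 on the untreated T-cell arrays. All 8 lines were lower and neither cell type's treated values overlapped its untreated ones. The fall was -1.53 ± 0.31 (adjusted p = 0.00723) in ALCL lines and -1.63 ± 0.31 (adjusted p = 0.00337) in T-cell lines, the deepest of the list in ALCL lines. WDR43, a processome component that helps couple transcription to processing, read 6.03, 5.67, 5.76 and 5.79 on the treated ALCL arrays, against 6.91, 6.93, 7.79 and 6.37 on the untreated ALCL arrays. It read 5.73, 6.25, 5.45 and 5.68 on the treated T-cell arrays, against 8.04, 7.13, 7.47 and 7.48 on the untreated T-cell arrays. Treated arrays were close together, whereas the untreated ALCL values spread with SU-DHL-1 at the top and Karpas 299 at the bottom. The change was -1.19 ± 0.26 (adjusted p = 0.0106) in ALCL lines and -1.75 ± 0.26 (adjusted p = 9.36e-04) in T-cell lines, the deepest fall of the list in the T-cell lines.

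UTP18, another processome protein, whose promoter window holds an E-box, read 8.11, 7.10, 8.38 and 8.33 on the treated ALCL arrays, against 8.52, 9.23, 10.33 and 8.81 on the untreated ALCL arrays. It read 8.0, 8.48, 7.95 and 7.81 on the treated T-cell arrays, against 9.49, 9.24, 9.90 and 9.97 on the untreated T-cell arrays. JB6 had the lowest treated value, and no treated value reached the lowest untreated one of its cell type. The fall was -1.24 ± 0.32 (adjusted p = 0.0215) in ALCL lines and -1.59 ± 0.32 (adjusted p = 0.00441) in T-cell lines. The ALCL call was not kept with 1 line out, at an adjusted p of 0.112 without JB6 and 0.102 without SU-DHL-1. IMP4, which joins the U3 particle to the precursor, read 9.45, 7.54, 8.86 and 8.30 on the treated ALCL arrays, against 10.49, 9.53, 10.27 and 9.11 on the untreated ALCL arrays. It read 8.71, 8.65, 8.0 and 7.70 on the treated T-cell arrays, against 9.62, 9.47, 9.33 and 9.32 on the untreated T-cell arrays. The ALCL groups overlapped because treated FE-PD was above untreated Karpas 299, yet each line was lower than its own untreated array. The fall was -1.31 ± 0.20 (adjusted p = 0.00188) in ALCL lines and -1.17 ± 0.20 (adjusted p = 0.00201) in T-cell lines. HEATR1, a large processome scaffold, read 8.83, 7.31, 9.17 and 8.66 on the treated ALCL arrays, against 9.29, 9.11, 10.05 and 9.10 on the untreated ALCL arrays. It read 7.94, 8.37, 7.56 and 7.54 on the treated T-cell arrays, against 9.10, 9.04, 9.11 and 9.08 on the untreated T-cell arrays. The untreated T-cell values lay within a narrow band and all treated T-cell values lay below it. The fall was -0.90 ± 0.23 (adjusted p = 0.0213) in ALCL lines, where treated SU-DHL-1 overlapped the untreated group, and -1.23 ± 0.23 (adjusted p = 0.00308) in T-cell lines. The ALCL adjusted p was 0.0815 without JB6 and 0.0685 without SU-DHL-1.

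NOP14, a processome factor, fell by 0.62 ± 0.17 in ALCL (adjusted p = 0.0299) and by 1.19 ± 0.17 in T-cell lines (adjusted p = 8.27e-04), with ALCL adjusted p values of 0.0544 without FE-PD, 0.134 without JB6 and 0.102 without SU-DHL-1. BYSL, which matures the small subunit, NOL7, UTP20 and RRP9, a protein of the U3 particle, were called lower in T-cell lines. Their T-cell changes were -1.13 ± 0.17, -0.67 ± 0.23, -0.65 ± 0.18 and -0.65 ± 0.18 in that order (adjusted p = 8.83e-04, 0.0445, 0.0177 and 0.0176). Their ALCL changes were -0.45 ± 0.17, -0.72 ± 0.23, -0.53 ± 0.18 and -0.36 ± 0.18, none of them called (adjusted p between 0.0529 and 0.17). The T-cell call of RRP9 ended at an adjusted p of 0.0605 without CCRF-CEM, 0.0862 without Molt-3 and 0.0735 without Molt-4, that of UTP20 at 0.0619 without CCRF-CEM, 0.0695 without Molt-3 and 0.0587 without Molt-4, and that of NOL7 at 0.0549 without SU-DHL-1, 0.0542 without Karpas 299, 0.101 without CCRF-CEM, 0.129 without Molt-3 and 0.203 without Molt-4. WDR3 was not called in either cell type alone but was lower over all 8 lines (-0.41 ± 0.13 (adjusted p = 0.0219)), with adjusted p values of 0.0565 without JB6, 0.0627 without Molt-3 and 0.0641 without Molt-4. TBL3, RRP12 and PWP2 were not called in any treatment comparison. PWP2, a founding component of the processome, read 8.32, 8.62, 8.16 and 7.78 on the treated ALCL arrays, against 8.24, 8.60, 8.19 and 7.81 on the untreated ALCL arrays. It read 8.43, 8.82, 8.30 and 8.19 on the treated T-cell arrays, against 8.90, 8.61, 8.04 and 8.10 on the untreated T-cell arrays. Its groups overlapped almost entirely in both cell types. The changes were 0.01 ± 0.14 in ALCL and 0.02 ± 0.14 in T-cell lines, with a 95% interval over all 8 lines of -0.20 to 0.23.

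The large-subunit factors held 6 measured genes, and 5 fell over all 8 lines. NIP7, a factor needed for precursor processing and large-subunit assembly, read 6.12, 5.85, 6.61 and 6.13 on the treated ALCL arrays, against 6.58, 7.23, 8.16 and 6.97 on the untreated ALCL arrays. It read 6.65, 6.20, 6.19 and 5.93 on the treated T-cell arrays, against 8.24, 7.73, 7.12 and 7.76 on the untreated T-cell arrays. Each line was lower after treatment, with overlap between the ALCL groups and none between the T-cell groups. The fall was -1.06 ± 0.20 (adjusted p = 0.00512) in ALCL and -1.47 ± 0.20 (adjusted p = 6.09e-04) in T-cell lines. RRS1, which helps load the 5S particle, read 7.67, 7.72, 7.28 and 7.53 on the treated ALCL arrays, against 8.08, 9.02, 8.10 and 8.02 on the untreated ALCL arrays. It read 7.63, 7.74, 7.36 and 7.47 on the treated T-cell arrays, against 9.03, 8.51, 8.90 and 8.99 on the untreated T-cell arrays. Untreated JB6 stood above the other untreated ALCL lines, and treated values did not overlap untreated ones in either cell type. The fall was -0.76 ± 0.18 (adjusted p = 0.0148) in ALCL lines, with adjusted p values of 0.0687 without JB6 and 0.0588 without SU-DHL-1, and -1.31 ± 0.18 (adjusted p = 6.31e-04) in T-cell lines. WDR12 and PES1 form a complex with BOP1 that is needed for large-subunit maturation. WDR12 read 9.19, 7.31, 8.83 and 8.63 on the treated ALCL arrays, against 9.59, 9.81, 10.20 and 9.35 on the untreated ALCL arrays. It read 8.77, 9.28, 8.32 and 8.63 on the treated T-cell arrays, against 9.60, 9.33, 9.88 and 10.13 on the untreated T-cell arrays. Treated JB6 was far below the other treated arrays, and Jurkat hardly differed from its untreated array. The fall was -1.25 ± 0.33 (adjusted p = 0.0253) in ALCL and -0.99 ± 0.33 (adjusted p = 0.0383) in T-cell lines. The adjusted p was 0.113 without JB6 and 0.0877 without SU-DHL-1 in ALCL lines, and 0.0501 without SU-DHL-1, 0.0696 without CCRF-CEM, 0.155 without Molt-3 and 0.156 without Molt-4 in T-cell lines.

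PES1 read 7.83, 8.39, 8.61 and 8.46 on the treated ALCL arrays, against 8.80, 8.90, 9.34 and 8.68 on the untreated ALCL arrays. It read 8.33, 8.58, 7.49 and 7.69 on the treated T-cell arrays, against 9.47, 8.78, 8.67 and 8.79 on the untreated T-cell arrays. Treated values lay below untreated ones without overlap in both cell types, with untreated CCRF-CEM the highest array. The fall was -0.61 ± 0.19 (adjusted p = 0.0422) in ALCL and -0.91 ± 0.19 (adjusted p = 0.00483) in T-cell lines. In ALCL lines the adjusted p was 0.115 without FE-PD, 0.102 without JB6, 0.14 without SU-DHL-1, 0.052 without CCRF-CEM, 0.0584 without Molt-3 and 0.0554 without Molt-4. RRP1B was not called in either cell type (-0.67 ± 0.25 in ALCL and -0.67 ± 0.25 in T-cell lines, adjusted p = 0.0814 and 0.0546), and was lower over all 8 lines at -0.67 ± 0.18 (adjusted p = 0.0108). NOP2, an RNA methyltransferase of the large subunit, was not called, at -0.17 ± 0.10 (adjusted p = 0.162) over all 8 lines.

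Both measured box H/ACA proteins and the box C/D methyltransferase fell in each cell type. GAR1, a core H/ACA protein, read 7.30, 6.19, 6.53 and 7.10 on the treated ALCL arrays, against 7.75, 8.71, 8.39 and 7.74 on the untreated ALCL arrays. It read 8.27, 8.43, 7.79 and 7.26 on the treated T-cell arrays, against 9.34, 9.07, 9.44 and 9.49 on the untreated T-cell arrays. JB6 had the lowest treated value and Molt-4 the lowest among treated T-cell arrays, and no treated value overlapped the untreated values of its cell type. The fall was -1.36 ± 0.35 (adjusted p = 0.0201) in ALCL and -1.40 ± 0.35 (adjusted p = 0.0115) in T-cell lines. The adjusted p was 0.0999 without JB6 and 0.0895 without SU-DHL-1 in ALCL lines, and 0.053 without Molt-3 and 0.0643 without Molt-4 in T-cell lines. NHP2, another core H/ACA protein, read 9.96, 9.38, 9.86 and 10.02 on the treated ALCL arrays, against 10.90, 11.48, 11.41 and 10.71 on the untreated ALCL arrays. It read 9.77, 11.17, 10.18 and 10.04 on the treated T-cell arrays, against 10.67, 11.50, 11.38 and 11.31 on the untreated T-cell arrays. Jurkat differed least between its own arrays, and treated Jurkat was above untreated CCRF-CEM. The fall was -1.32 ± 0.23 (adjusted p = 0.00358) in ALCL and -0.93 ± 0.23 (adjusted p = 0.0118) in T-cell lines, where the adjusted p was 0.0603 without Molt-3 and 0.0617 without Molt-4. FBL, the ribose methyltransferase of box C/D particles, fell by 0.84 ± 0.19 in ALCL lines (adjusted p = 0.0113) and by 0.74 ± 0.19 in T-cell lines (adjusted p = 0.0125). Its adjusted p was 0.0591 without JB6 in ALCL lines, and 0.0663 without Molt-3 and 0.0688 without Molt-4 in T-cell lines.

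Of the 5 nucleolar scaffold and chaperone genes, 4 fell over all 8 lines. NPM1, the main chaperone of the nucleolus, read 11.44, 10.81, 11.02 and 10.36 on the treated ALCL arrays, against 12.13, 12.11, 12.16 and 11.41 on the untreated ALCL arrays. It read 11.15, 11.31, 11.02 and 10.84 on the treated T-cell arrays, against 11.84, 11.92, 12.30 and 12.30 on the untreated T-cell arrays. Each line was lower after treatment, untreated Karpas 299 lay well below the other untreated ALCL lines, and treated FE-PD overlapped it. The fall was -1.04 ± 0.17 (adjusted p = 0.00239) in ALCL and -1.01 ± 0.17 (adjusted p = 0.00172) in T-cell lines. Its probe set has the suffix that Affymetrix gives to sets whose probes can also match other sequences. NCL, which binds the precursor, fell by 0.93 ± 0.19 in ALCL lines (adjusted p = 0.00803) and by 0.72 ± 0.19 in T-cell lines (adjusted p = 0.0159), where the adjusted p was 0.0538 without Molt-3 and 0.0858 without Molt-4. DDX21, an RNA helicase, was called in ALCL lines (-1.06 ± 0.26 (adjusted p = 0.0159), with adjusted p values of 0.0601 without JB6 and 0.0533 without SU-DHL-1) and measured -0.60 ± 0.26 (adjusted p = 0.0811) in T-cell lines. MYBBP1A was called in T-cell lines (-0.81 ± 0.23 (adjusted p = 0.0199), with 0.0714 without CCRF-CEM and 0.0702 without Molt-4) and measured -0.48 ± 0.23 (adjusted p = 0.164) in ALCL lines. For neither gene was the difference of effects (ALCL minus T-cell) called, and it was -0.46 ± 0.36 (adjusted p = 0.655) for DDX21 and 0.34 ± 0.33 (adjusted p = 0.726) for MYBBP1A. NOLC1, a chaperone of snoRNPs, was not called, at -0.14 ± 0.13 (adjusted p = 0.363) over all 8 lines.

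The RNA polymerase I subunits split. POLR1B, a large subunit of the catalytic core, read 8.22, 8.74, 8.45 and 7.91 on the treated ALCL arrays, against 7.83, 7.16, 7.70 and 7.91 on the untreated ALCL arrays. It read 8.41, 7.57, 8.44 and 8.35 on the treated T-cell arrays, against 7.94, 7.72, 7.32 and 7.65 on the untreated T-cell arrays. In 6 of the 8 lines the treated value was clearly the higher one, in Karpas 299 the arrays were level, and in Jurkat the treated value was slightly lower. The change was 0.68 ± 0.26 (adjusted p = 0.0836) in ALCL and 0.54 ± 0.26 (adjusted p = 0.111) in T-cell lines, and over all 8 lines POLR1B rose by 0.61 ± 0.18 (adjusted p = 0.018). That call ended without Molt-3 (adjusted p = 0.0548) and the value was -0.0047 after centring on the hybridisation spikes. Its single probe set carries the same suffix as that of NPM1. POLR1C, a subunit shared with RNA polymerase III, fell by 0.42 ± 0.13 in ALCL lines (adjusted p = 0.043) and by 0.62 ± 0.13 in T-cell lines (adjusted p = 0.00557). POLR1E fell by 0.47 ± 0.15 in ALCL lines (adjusted p = 0.0495) and by 0.49 ± 0.15 in T-cell lines (adjusted p = 0.0274). The ALCL adjusted p of POLR1C was 0.063 without FE-PD, 0.106 without JB6, 0.198 without SU-DHL-1, 0.0574 without CCRF-CEM, 0.0573 without Jurkat, 0.0642 without Molt-3 and 0.0531 without Molt-4. That of POLR1E was 0.165 without JB6, 0.177 without SU-DHL-1, 0.0967 without Karpas 299, 0.0661 without Jurkat and 0.0756 without Molt-3, and in T-cell lines it was 0.0614 without Jurkat, 0.113 without Molt-3 and 0.137 without Molt-4.

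**Figure D2:**
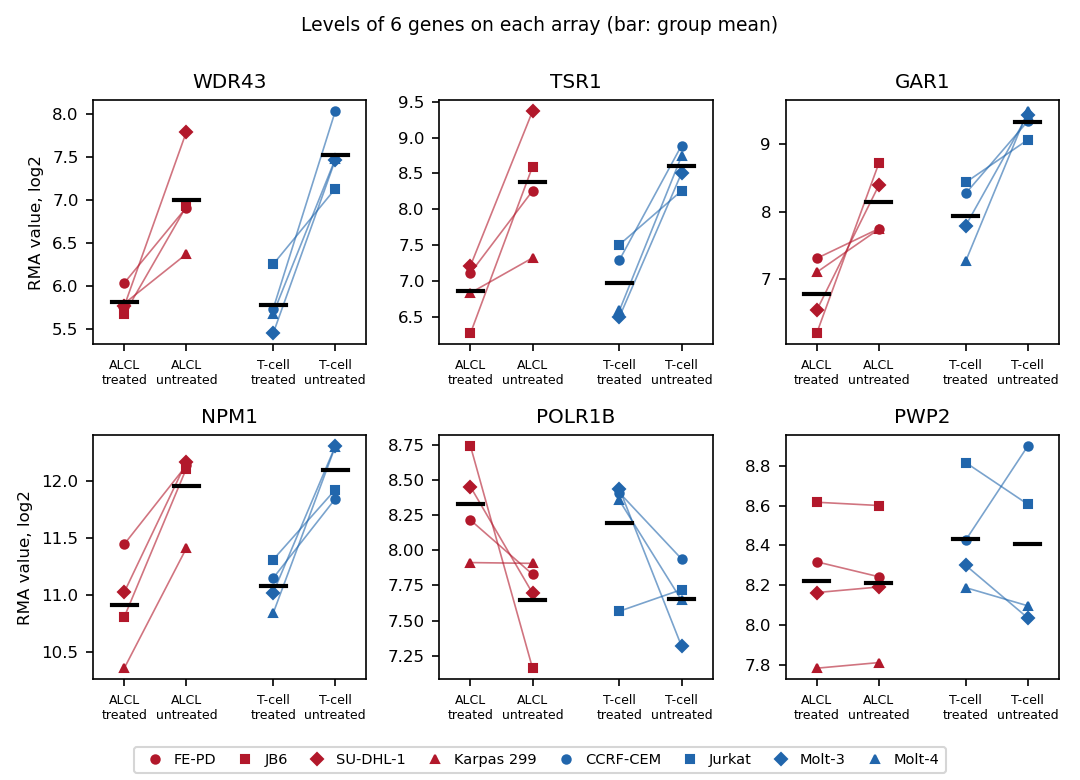
RMA value (log2) of 6 of the genes on each array, with a line joining the treated and the untreated array of a cell line, red for ALCL and blue for T-cell lines, and a black bar at the mean of 4 arrays. WDR43, TSR1, GAR1 and NPM1 slope the same way in all 8 lines, POLR1B slopes the other way in most, and PWP2 shows no common direction.

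No difference in the fall was detected between the cell types. None of the 31 genes was called in the difference of the treatment effects (ALCL minus T-cell) in either direction by limma, where 0.568% of all genes were called lower and 1.11% higher. At an unadjusted p under 0.05 no gene was lower and 2 were higher, against 13% of all genes in either direction. The smallest adjusted p was that of BYSL, whose difference was 0.68 ± 0.23 (adjusted p = 0.228). It was -0.45 ± 0.17 in ALCL lines and -1.13 ± 0.17 in T-cell lines. For NOP14, RRS1 and WDR43, whose point estimates were lower in T-cell lines, the differences were 0.57 ± 0.24, 0.55 ± 0.25 and 0.56 ± 0.37 (adjusted p = 0.354, 0.401 and 0.583). The 95% interval of the difference lay within a 2-fold change either way for 18 of the 31 genes. For the others the interval reached past that size, as for GAR1 with an interval of -1.06 to 1.12.

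**Figure D3:**
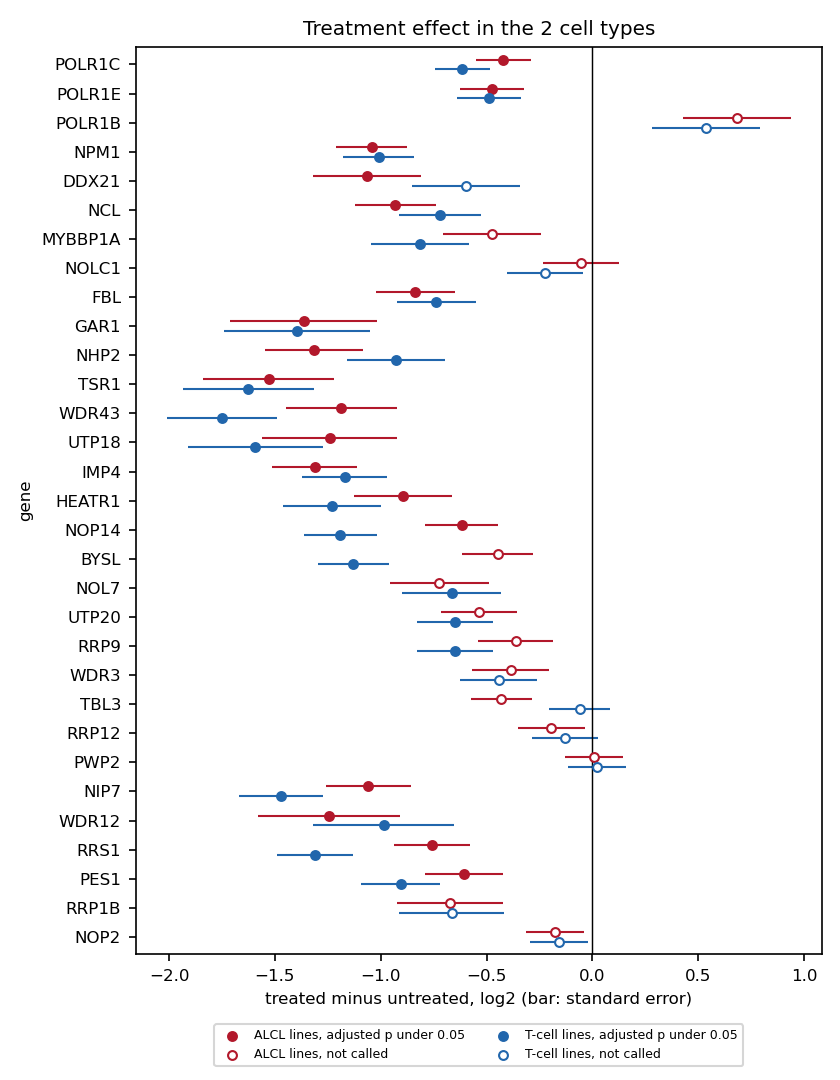
Treatment effect (treated minus untreated, log2) of each of the 31 genes in ALCL lines (red) and T-cell lines (blue), with bars of 1 standard error from the fit and filled points where the adjusted p was under 0.05. The points of both cell types lie left of 0 for all but POLR1B and PWP2, and most pairs of bars overlap.

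Between untreated lines GAR1 was the 1 gene of the list that was called. Of the 31 genes 1 was lower and none higher in untreated ALCL lines than in untreated T-cell lines, against 5.58% lower and 3.18% higher of all genes. At an unadjusted p under 0.05 there were 2 lower and 1 higher, against 25% of all genes in either direction. GAR1 averaged 8.15 ± 0.49 in untreated ALCL lines and 9.33 ± 0.19 in untreated T-cell lines (SD, n = 4 each), and the 4 and 4 values did not overlap (background 9.74%). The difference was -1.19 ± 0.24 (adjusted p = 0.0214), and the adjusted p was 0.0703 without Molt-3 and 0.0695 without Molt-4. The median difference of the 31 genes was -0.23, where that of all genes was 0.04, and it turned to 0.07 with spike centring, where that of all genes was 0.34. RRS1 measured -0.55 ± 0.24 (adjusted p = 0.202) and was called at an adjusted p of 0.0242 without JB6.

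Between treated lines no gene of the list was called (treated ALCL minus treated T-cell), against 1.53% lower and 1.35% higher of all genes by limma. At an unadjusted p under 0.05 there were 2 lower and none higher, against 15.9% of all genes in either direction. GAR1 again had the smallest adjusted p, with 6.78 ± 0.51 in treated ALCL lines and 7.94 ± 0.53 in treated T-cell lines (SD, n = 4 each). The difference was -1.16 ± 0.32 (adjusted p = 0.0996), not called, and treated FE-PD overlapped treated Molt-4. HEATR1 measured 0.64 ± 0.38 (adjusted p = 0.498) and DDX21 -0.82 ± 0.31 (adjusted p = 0.223).

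Treated T-cell lines were also set against untreated ALCL lines, the comparison named by the study's question. Of the 31 genes 7 were lower in treated T-cell lines and none higher, against 9.09% lower and 8.82% higher of all genes. For 9 genes the treated T-cell values lay below all untreated ALCL values (background 10.6%). The called genes were IMP4 at -1.59 ± 0.35 (adjusted p = 0.0158), HEATR1 at -1.54 ± 0.27 (adjusted p = 0.00587), TSR1 at -1.41 ± 0.42 (adjusted p = 0.0474), WDR43 at -1.22 ± 0.30 (adjusted p = 0.0239), WDR12 at -0.99 ± 0.25 (adjusted p = 0.0258), PES1 at -0.91 ± 0.26 (adjusted p = 0.0448) and NPM1 at -0.87 ± 0.20 (adjusted p = 0.019). HEATR1 averaged 7.85 ± 0.39 in treated T-cell lines and 9.39 ± 0.45 in untreated ALCL lines (SD, n = 4 each). For these genes treated T-cell lines lay below the untreated ALCL level, and none of them was called between the untreated cell types. The untreated differences (ALCL minus T-cell) of IMP4, HEATR1 and PES1 were 0.42 ± 0.29, 0.30 ± 0.21 and 0.0022 ± 0.21 (adjusted p = 0.409, 0.397 and 0.997). This comparison shares its arrays with the treatment comparisons. The count was 2 without JB6, 4 without SU-DHL-1, 4 without CCRF-CEM, 1 without Molt-3 and 2 without Molt-4, and 15 in a fit of all 16 arrays. Of all genes 6.92%, 8.21%, 8.16%, 5.85%, 6.22% and 11% were lower in these fits, in the same order, so the list's share was near or below the background without JB6, Molt-3 or Molt-4. The HEATR1 call held with any 1 line left out, and that of IMP4 ended without Molt-3 (adjusted p = 0.0504). Adjusted p values were 0.0531 without JB6, 0.0566 without Molt-3 and 0.0507 without Molt-4 for NPM1, 0.0547 without JB6, 0.0504 without CCRF-CEM, 0.0715 without Molt-3 and 0.0626 without Molt-4 for WDR43 and 0.0656 without JB6, 0.0535 without SU-DHL-1, 0.051 without CCRF-CEM, 0.0732 without Molt-3 and 0.0666 without Molt-4 for WDR12. They were 0.0728 without FE-PD, 0.111 without JB6, 0.0824 without SU-DHL-1, 0.0647 without CCRF-CEM, 0.125 without Molt-3 and 0.119 without Molt-4 for TSR1 and 0.0661 without FE-PD, 0.0914 without JB6, 0.0972 without SU-DHL-1, 0.0585 without Karpas 299, 0.0513 without CCRF-CEM, 0.113 without Molt-3 and 0.111 without Molt-4 for PES1.

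The size of the fall varied between lines within both cell types. The median change of the 31 genes was -0.44 in FE-PD, -1.24 in JB6, -0.85 in SU-DHL-1 and -0.43 in Karpas 299. It was -0.84 in CCRF-CEM, -0.35 in Jurkat, -0.89 in Molt-3 and -1.25 in Molt-4. Every line had a median below 0, and between 24 and 30 of the 31 genes were lower in each. JB6 and Molt-4, with the deepest medians, also had large rises of the 28S control (6.79 and 7.40) and the largest drops of the array SD (-0.235 and -0.303). Karpas 299 and Jurkat, with 2 of the 3 shallowest medians, lacked the 28S rise. CCRF-CEM lacked it too and had a median of -0.84, and FE-PD had it with a median of -0.44. The 28S rise here is that of the 5' control. The control for the middle part of 28S was higher on the treated array in every line other than Karpas 299. It read 10.74 against 9.32 untreated in CCRF-CEM, 11.01 against 9.15 in Jurkat and 11.51 against 9.52 in FE-PD. In Karpas 299 it read 9.58 against 9.60. The difference between the 3' and the 5' control probe sets of ACTB, a sign of RNA quality, was higher on the treated array in 7 of 8 lines, by 0.38 to 1.13, most in JB6 and Molt-4 (1.13 and 1.0), and changed by -0.09 in Karpas 299. The part of these measures in the fall was not tested. In the T-cell lines without the 28S rise, CCRF-CEM and Jurkat, 7 genes were called lower (background 8.32%), from fewer arrays. The median was -0.62, with that of all genes at 0.09. In those with the rise, Molt-3 and Molt-4, 22 were called lower (background 17.6%), also from fewer arrays. The median was -1.09, with that of all genes at 0.17. Karpas 299, the 1 ALCL line without the rise, had a median of -0.43, with that of all genes at 0.07. Without JB6 and Molt-4, a choice made after seeing the data, 7 genes were lower in ALCL lines, 16 in T-cell lines and 21 over the remaining 6 lines. Of all genes 7.45%, 14.6% and 18.4% were lower in these fits, in the same order.

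MYC, the transcription factor for which many of these genes are known targets, was measured beside them. It read 8.50, 6.95, 9.09 and 9.07 on the treated ALCL arrays, against 10.47, 10.24, 10.62 and 9.04 on the untreated ALCL arrays. It read 6.34, 7.08, 7.0 and 6.83 on the treated T-cell arrays, against 10.67, 10.42, 10.76 and 11.06 on the untreated T-cell arrays. Karpas 299 alone showed no drop. The fall was -1.69 ± 0.41 in ALCL lines (adjusted p = 0.0163) and -3.92 ± 0.41 in T-cell lines (adjusted p = 1.87e-04), and the difference of effects, 2.23 ± 0.58, was not called (adjusted p = 0.104). The part of MYC in the fall of the list was not tested. MAX, the partner of MYC, measured -0.11 ± 0.11 over all 8 lines (adjusted p = 0.387).

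**Figure D4:**
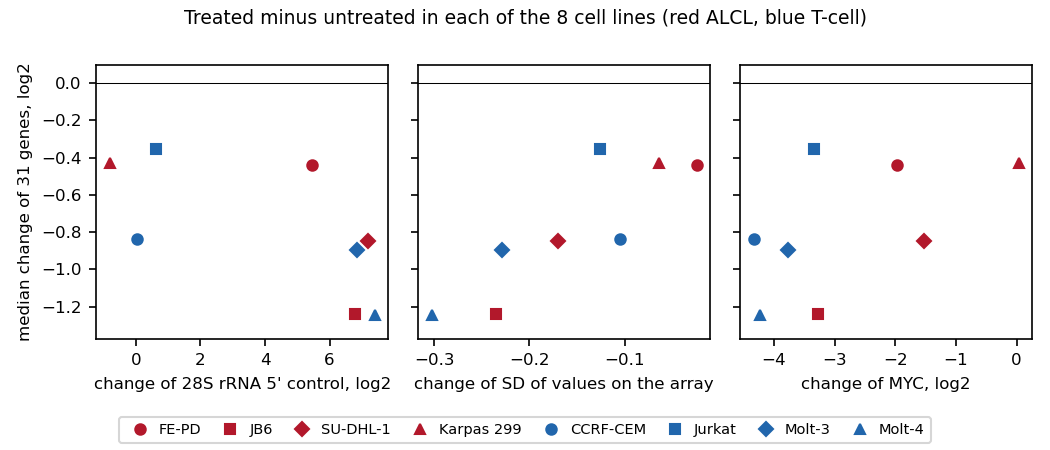
Median log2 change of the 31 genes in each cell line (y) against the change, treated minus untreated, of the 28S 5' control in log2 (left), of the SD of all values on the array (middle) and of MYC in log2 (right), 1 point per line, red for ALCL and blue for T-cell lines. Molt-4 and JB6 are lowest in every panel.

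Several probe sets of a gene did not always move together. Of the 31 genes 9 had more than 1 probe set. For HEATR1, POLR1C and NPM1 each further set was called lower over all 8 lines too. For NPM1 these measured -0.56 ± 0.11 and -0.91 ± 0.14. TSR1 had a further set at -1.09 ± 0.17 (adjusted p = 8.08e-04) and another that was higher, at 0.62 ± 0.18 (adjusted p = 0.0177). UTP18 had a further set with a low mean value that was higher, at 0.30 ± 0.11 (adjusted p = 0.0464). These rest on the single sets and go against the sets used here for both genes. NOLC1 was not called by the set used, but its further sets were lower at -0.43 ± 0.13 and -0.56 ± 0.18 (adjusted p = 0.0205 and 0.0273). RRP12 had further sets at -0.44 ± 0.13 and 0.33 ± 0.12, called in opposite directions (adjusted p = 0.0205 and 0.0426). For NOL7, 2 further sets were lower over all 8 lines and another measured 0.07 ± 0.11 (adjusted p = 0.616), and for RRP1B the other set measured -0.25 ± 0.11 (adjusted p = 0.0796). With all probe sets of a gene averaged in place of the highest set, 18 genes were lower in ALCL and 21 in T-cell lines. The background was 13.6% and 20.4%.

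Most measured genes of the rest of the pathway were lower too over all 8 lines. They were listed by role, although earlier results of these data were known. Of 165 further genes 133 were measured, and 86 were lower and 3 higher over all 8 lines (background 23.7% and 29.9%). In ALCL lines 55 were lower and 2 higher (background 13.4% and 8.04%), and in T-cell lines 78 and 4 (background 20.2% and 21.7%). Over all 8 lines the lower genes were 5 of 15 RNA polymerase I subunits and factors, 8 of 10 snoRNP assembly genes, 26 of 40 small-subunit factors, 34 of 48 large-subunit factors and 13 of 20 exosome and RNase MRP genes. The medians of these lists were -0.30, -0.52, -0.53, -0.62 and -0.59, where that of all genes was 0.12.

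EXOSC8 had the deepest fall of these lists over all 8 lines. It encodes a subunit of the RNA exosome that trims the precursor. It read 5.68, 5.41, 5.29 and 5.90 on the treated ALCL arrays, against 6.96, 8.27, 7.89 and 8.46 on the untreated ALCL arrays. It read 6.52, 5.85, 5.44 and 5.68 on the treated T-cell arrays, against 8.90, 8.39, 8.46 and 8.28 on the untreated T-cell arrays. No treated array reached an untreated one, and the fall over all 8 lines was -2.48 ± 0.16 (adjusted p = 9.04e-06). The exosome genes EXOSC2 and EXOSC5 fell too, at -1.34 ± 0.11 and -1.16 ± 0.11. UBTF, which opens ribosomal DNA for RNA polymerase I, read 6.64, 6.79, 6.77 and 7.08 on the treated ALCL arrays, against 7.74, 8.32, 8.28 and 7.40 on the untreated ALCL arrays. It read 6.92, 6.99, 7.05 and 6.92 on the treated T-cell arrays, against 8.43, 8.63, 9.10 and 9.02 on the untreated T-cell arrays. All 8 lines were lower, least so Karpas 299, and the fall was -1.47 ± 0.14 (adjusted p = 5.31e-05). TTF1, the terminator of RNA polymerase I, fell at -0.98 ± 0.11. POLR2L, a small subunit shared by all nuclear RNA polymerases, was higher in all 8 lines and rose by 1.17 ± 0.18 (adjusted p = 5.70e-04). Of the assembly genes, COIL, the scaffold of Cajal bodies, measured -1.52 ± 0.12, TCOF1 -0.64 ± 0.09 and ZNHIT6 -1.18 ± 0.18. EMG1, a methyltransferase of small-subunit RNA, measured -1.82 ± 0.15, NOL11 -1.40 ± 0.15 and C1QBP -1.86 ± 0.20. The large-subunit factors MRTO4, WDR74 and BRIX1 measured -1.59 ± 0.11, -1.36 ± 0.12 and -1.03 ± 0.11. All the falls named here were called over all 8 lines, with adjusted p values between 9.04e-06 and 5.57e-04.

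**Figure D5:**
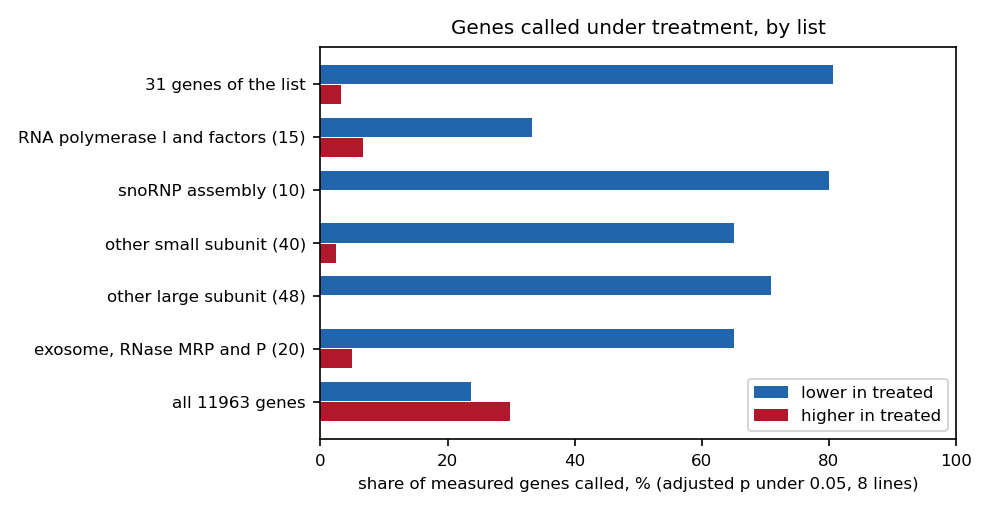
Share of measured genes (percent) called lower (blue) or higher (red) on treated arrays over all 8 lines at an adjusted p under 0.05, for the 31 genes, 5 further lists (number measured in parentheses) and all 11963 genes. In each list more genes were lower than higher, whereas among all genes 23.7% were lower and 29.9% higher.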

How the data were processed

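RNA of 8 cell lines, each untreated and treated, was measured on 16 Affymetrix arrays, 1 per line and condition. Per the submitters' processing notes, the authors used RMA in R 2.10.1, and the deposited table holds log2 expression values of 22283 probe sets. The sources used here do not say whether all arrays were normalized as 1 set and hold no detection calls, so no gene is called absent. The number of arrays limits the precision.

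A total of 19065 probe sets carry 1 gene symbol in the platform's annotation, and each of 11963 genes was represented by the set that averaged highest. Two-sided tests used limma 3.58.1 under R 4.3.3, by lmFit followed by eBayes, with p-values adjusted by Benjamini-Hochberg over the 11963 genes. A gene is called at an adjusted p under 0.05. Treatment effects and their difference came from a joint fit in which each cell line was a block (16 arrays, 6 residual degrees of freedom), and comparisons between cell types from the 8 arrays concerned. The scripts were tested on simulated data.

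Untreated and treated arrays are paired by the cell line named in the labels. Across genes, deviations of a line's own arrays from their group means correlated at 0.33 to 0.643, and Molt-4 correlated at 0.33 with itself and at 0.399 with another line.

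Genes, lists and tests were chosen with earlier results of these data known. Full values are given for the 6 largest called changes in each treatment comparison, for genes called between cell types, and for genes that moved against most of their role group. From each further list the 3 genes with the smallest adjusted p over all 8 lines are named. Alternatives were fits without the line block, with a random block or of 1 cell type, group means of all 16 arrays, other probe set rules, a filter on the lowest 40% of genes, 4 other scalings, each line left out, and lines split by the 28S control.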

Additional observations from a re-analysis of the deposited data

Results flagged for a closer look

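In 5 of 124 groups of 4 arrays 1 value stood apart from the others by Dixon's test at the 95% level, and chance alone marks about 1 group in 20. NPM1 read 11.4 on the untreated Karpas 299 array, where the other untreated ALCL lines lay between 12.1 and 12.2. RRS1 read 9.02 on the untreated JB6 array, where the other untreated ALCL lines lay between 8.02 and 8.10. Untreated CCRF-CEM was the high array for PES1, at 9.47 against 8.67 to 8.79 in the other untreated T-cell lines, and for MYBBP1A, at 9.20 against 7.93 to 8.14. POLR1B read 7.57 on the treated Jurkat array, below 8.35 to 8.44 in the other treated T-cell lines.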

How the results depend on the processing

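With 1 line left out at a time, the number of the 31 genes called lower ran from 7 to 19 in ALCL lines, 12 to 24 in T-cell lines and 24 to 26 over all 8 lines. It ran from 0 to 2 between untreated cell types, and from 1 to 9 for treated T-cell against untreated ALCL lines. The number called higher ran from 0 to 1 in ALCL lines, 0 to 1 over all 8 lines and 0 to 1 for treated T-cell against untreated ALCL lines. In lines without the 28S rise, 0 were lower in the 1 ALCL line, where 0% of all genes were lower too and no call could be made, 7 in the T-cell lines, and 3 lower and 0 higher over these lines. With that 1 ALCL line, the median of the 31 genes was -0.81 between untreated cell types, where that of all genes was -0.0012. For treated T-cell against untreated ALCL lines the medians were 0.066 and 0.099, and TSR1 turned to 0.078. In lines with the rise, 19 were lower and 1 higher in ALCL lines (background 13.1% and 6.58%). In T-cell lines 22 were lower (background 17.6%). Over these lines 25 were lower and 1 higher (background 22.3% and 22.4%). Between untreated cell types 0 differed (background 3.64% lower and 2.11% higher), and 13 were lower in treated T-cell than in untreated ALCL lines (background 9.28%). Fewer arrays entered these fits. Centring on the hybridisation spikes left 0 higher over all 8 lines, with POLR1B at -0.0047, 0 between untreated cell types and 22 lower in treated T-cell than in untreated ALCL lines. The fit of all 16 arrays gave 1 lower in treated ALCL than in treated T-cell lines (background 2.93%). It gave 15 lower in treated T-cell than in untreated ALCL lines (background 11%), and the random line block gave 1 higher in ALCL lines (background 9.4%). Without JB6 and Molt-4, chosen after seeing the data, 7 were lower in ALCL lines (background 7.45%) and 0 higher over all lines (background 16.9%). In treated T-cell against untreated ALCL lines 1 was then lower (background 4.51%). The causes of these shifts were not tested. Without the replicate block that pairs each line with itself, 13 were lower in ALCL lines, 19 in T-cell lines and 23 over all 8 lines. The background was 8.34%, 14.8% and 19.2% in the same order. The filter on low values removed WDR43 and NIP7. The difference of effects stayed at 0 calls in either direction under each alternative run. Detection above background was not available here, so low values carry no bound. Spike centring moved the median difference of all genes to 0.34 between untreated and 0.38 between treated cell types, and to -0.88 for treated T-cell against untreated ALCL lines. Of all genes 1.77% were then lower and 4.81% higher between untreated cell types, 0.242% and 2.4% between treated ones, and 24.3% and 0.535% in the last comparison. Over the settings run, the share of all genes called lower ran from 0% to 21.2% in ALCL lines, 8.32% to 28.9% in T-cell lines and 6.41% to 36.2% over all 8 lines. Quantile normalization gave medians of the 31 genes of -0.50 over all 8 lines and -0.43 for treated T-cell against untreated ALCL lines. There 22 and 5 were lower (background 19.3% and 8.04%).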
